A study of Mus musculus with 18 samples.

Results

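MC38 cells with an intact Apc gene were compared after 48 h and after 24 h of doxycycline, with 3 libraries at each time, so that 6 of the 18 libraries of the series entered. MC38 is a mouse colon adenocarcinoma line from the C57BL/6 strain. Doxycycline at 1 µM was used to switch on a short hairpin RNA against Tdo2, which encodes tryptophan 2,3-dioxygenase, the first enzyme of tryptophan breakdown to kynurenine. Both groups therefore carried the inducible hairpin and both received the drug, in medium with tetracycline-approved serum, and they differed in its duration. The other 4 groups, also of 3 libraries each, were APC-intact cells without doxycycline and a line with Apc deleted, measured untreated, at 24 h and at 48 h. Sample titles give the hairpin for treated libraries alone, so it is unclear from the labels if the cells without drug held it. No treated group without the hairpin was analysed here, so drug and hairpin cannot be told apart. The labels speak of biological triplicates without naming separate cultures, and the p-values rest on the spread of these libraries, which may be technical.

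File names divide the series into 2 sets of 9 libraries by a word taken here to mean the sequencing run. All 3 APC-intact libraries at 24 h were in the first run and all 3 at 48 h in the second, so in these cells the effect of time and that of the run cannot be told apart. In APC-deleted cells both times were in the second run, and the same step of time is set beside the first for that reason. Depth was 71970499 to 102229211 counts in genes for the 6 libraries, and 15006 of 39179 genes were tested. Levels are CPM, counts in a gene scaled to the library's total with TMM factors, and changes are log2 fold changes of 48 h over 24 h ± SE from edgeR's quasi-likelihood test, with n = 3 per group and p-values adjusted over all genes tested by Benjamini and Hochberg. A gene is said to rise or fall where its adjusted p was below 0.05.

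Tdo2 itself was close to the limit of detection. Its CPM were 0.284, 0.235 and 0.165 without the drug, 0.0813, 0.197 and 0.263 at 24 h and 0.226, 0.229 and 0.308 at 48 h. The ranges overlapped, and the change from 24 to 48 h was 0.46 ± 0.47 on the log2 scale (adjusted p = 0.711, edgeR), so no difference in the hairpin's target was detectable at this depth. Of 7 markers of colon epithelium, Epcam had at most 1 count in any of the 6 libraries, Cdx2 had 0 in each, and Krt18 had at most 5. Krt20 had at most 12 counts and Vil1 at most 18. Krt8 had means of 1.07 CPM at 24 h and 1.05 CPM at 48 h, and E-cadherin, encoded by Cdh1, 0.857 and 1.43 CPM (0.73 ± 0.24 on the log2 scale, adjusted p = 0.241, edgeR). These markers were thus absent or low in cells labelled as of colon origin, and their levels cannot decide that origin.

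NF-kB is a family of dimeric transcription factors held in the cytoplasm by inhibitors such as IκBα, and it switches on chemokines, colony-stimulating factors, acute phase proteins and its own inhibitors when inflammatory receptors are engaged. Interferon-stimulated genes are a separate antiviral set switched on by interferon receptors through interferon response elements. Tumour cells in culture can express both sets at a basal level, and their chemokines are known to draw neutrophils and monocytes into tumours.

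Between 24 and 48 h, 111 of the 15006 genes tested changed in APC-intact cells, which is 0.74%, and 97 of them fell (0.646%) while 14 rose (0.0933%). The falls were led by genes of inflammation: the neutrophil chemokine Cxcl1 was 2.33-fold lower, the siderophore-binding protein Lcn2 2.64-fold, the inducible nitric oxide synthase Nos2 2.39-fold, the colony-stimulating factor Csf2 2.54-fold and the monocyte chemokine Ccl2 1.79-fold. Rises were smaller, and among genes with an assigned symbol and at least 5 CPM they reached at most 1.41-fold, in Lars2. Most changes were modest, with 32 genes past 1.5-fold and 14 past 2-fold, while the median change of all genes tested was 0.01 on the log2 scale. In bulk RNA, fewer cells that express a gene and less of its RNA per cell cannot be told apart. The number of calls depended on the libraries and the model. It was 442 without replicate 3 at 24 h, 64 without replicate 2 at 48 h, 49 when only these 6 libraries were fitted, 238 with DESeq2 and 168 with offsets for GC content. All 111 genes kept their direction under each of the 14 alternatives, and 37 were called in each of them.

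**Figure D1:**
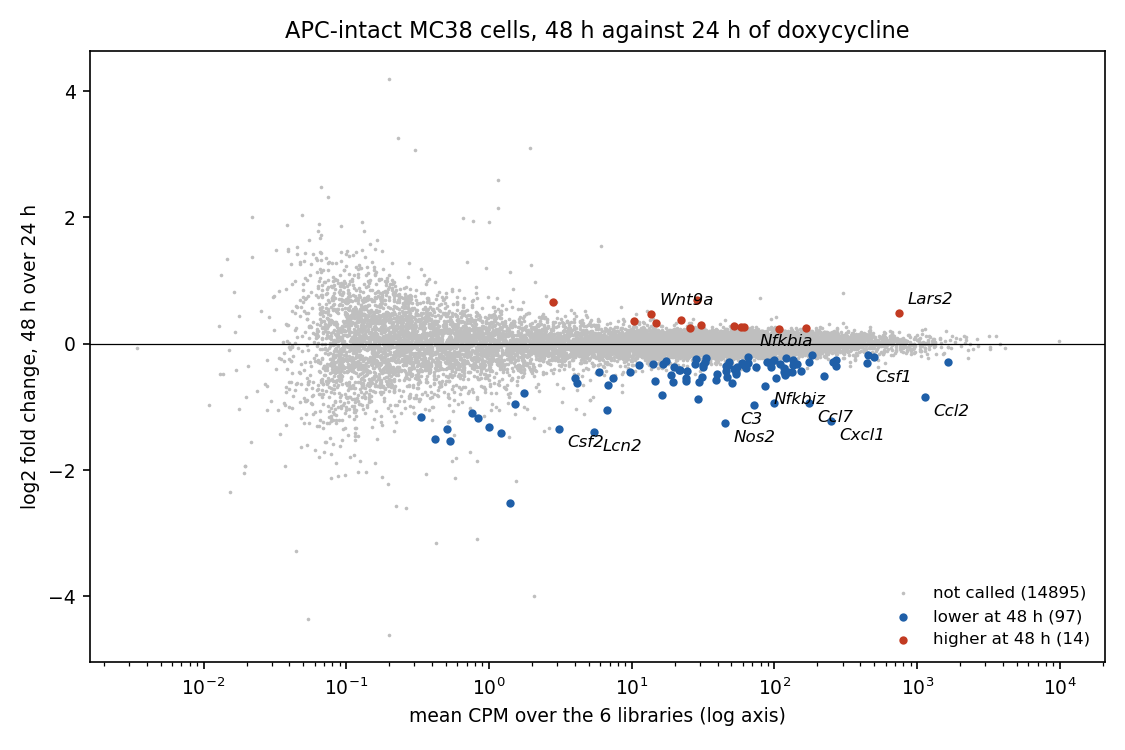
Each point is a gene: the x axis gives its mean CPM over the 6 APC-intact libraries on a log scale, and the y axis its log2 fold change at 48 h over 24 h. Grey points are genes not called, blue the 97 that fell and red the 14 that rose. The called falls reach further from 0 than the called rises, and labelled inflammatory genes such as Cxcl1 and Nos2 lie at the lower edge.

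The list of chemokines had 17 of 26 members tested, of which 8 fell and none rose. That is 47.1% of the tested members, against 0.646% of all genes tested that fell, and the median change of the list was -0.67 against 0.01 over all genes. Cxcl1 binds CXCR2 on neutrophils. Its CPM were 341, 378 and 330.4 at 24 h and 152, 137 and 162 at 48 h, and all 3 libraries at 48 h lay far below all 3 at 24 h. The change was -1.22 ± 0.08 (adjusted p = 3.03e-08, edgeR). Ccl2, the main ligand of the monocyte receptor CCR2, was the most abundant chemokine of the list per kilobase of exon, with 1275 CPM per kilobase at 24 h. Its CPM fell from 1596, 1406 and 1343 to 797, 832 and 795, without overlap, a change of -0.84 ± 0.07 (adjusted p = 4.04e-07, edgeR). Its neighbour Ccl7, which also binds CCR2, had 244, 242 and 206 CPM at 24 h and 117, 123 and 119 CPM at 48 h. The 3 libraries at 48 h lay within a few CPM of each other and below all 3 at 24 h, and the change was -0.94 ± 0.08 (adjusted p = 4.09e-07, edgeR).

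Of the other CXC and CC ligands that fell, Cxcl16, a membrane-bound ligand of CXCR6, went from 35.8 ± 1.75 to 23.4 ± 1.07 CPM (mean ± SD, n = 3), a change of -0.61 ± 0.07 (adjusted p = 1.84e-05, edgeR). Its gene overlaps Zmynd15, which had -0.78 ± 0.15, on the opposite strand, and since the use of strand in the counting is not given in the sources used here, reads of the pair cannot be told apart. Cx3cl1, the ligand of the fractalkine receptor on monocytes and natural killer cells, changed by -0.38 ± 0.06 (adjusted p = 0.00263, edgeR). The remaining 3 that fell had means of at most 1.16 CPM at 24 h. Cxcl3 had 0.794 ± 0.165 CPM at 24 h and 0.271 ± 0.0613 CPM at 48 h, Cxcl5 had 0.618 ± 0.0583 and 0.218 ± 0.102 CPM, and Ccl20, the ligand of CCR6, had 1.16 ± 0.112 and 0.510 ± 0.0452 CPM (mean ± SD, n = 3). Their changes were -1.54 ± 0.23, -1.51 ± 0.27 and -1.18 ± 0.22, with adjusted p of 0.000946, 0.00645 and 0.00718 in edgeR. Without replicate 2 at 48 h the calls of Cxcl5 and Ccl20 were lost, and the count for the list was then 6. It was 5 when only the 6 libraries were fitted. Among the 9 members not called, Cxcl2 changed by -0.83 ± 0.25 (adjusted p = 0.199, edgeR), and the CXCR3 ligand Cxcl10, which is both an NF-kB and an interferon target, by -0.22 ± 0.09 (adjusted p = 0.361, edgeR). Ccl9 was the one tested member with a change above 0, at 0.07 ± 0.07.

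Growth factors of myeloid cells and cytokines of the IL6 family made a list of 14 with 10 tested, and 4 fell (40%, against 0.646% of all genes tested), with a median of -0.25. Csf2, which encodes GM-CSF, had 4.99, 4.63 and 3.70 CPM at 24 h and 1.70, 1.45 and 2.08 CPM at 48 h. Every library at 48 h was below every library at 24 h, with a change of -1.34 ± 0.18 (adjusted p = 0.000324, edgeR). Csf3, which encodes the granulocyte factor G-CSF, had 1.77, 1.88 and 1.64 CPM at 24 h and 0.587, 0.698 and 0.691 CPM at 48 h, and its change was -1.42 ± 0.19 (adjusted p = 0.000300, edgeR). The leukaemia inhibitory factor Lif, which signals through gp130 to STAT3, changed less, from 144 ± 6.59 to 105 ± 4.98 CPM (-0.45 ± 0.05, adjusted p = 3.21e-05, edgeR). Csf1, the growth factor of macrophages, moved from 494 ± 30.7 to 399 ± 11.5 CPM (-0.31 ± 0.05, adjusted p = 0.00317, edgeR), a fall of 19.2%. Il6 had 0.786, 1.18 and 1.46 CPM at 24 h and 0.846, 0.563 and 0.977 CPM at 48 h, ranges that overlapped, and did not pass the test (-0.53 ± 0.26, adjusted p = 0.466, edgeR). Il33 and Il34 had values near 0, at 0.03 ± 0.12 and 0.11 ± 0.06.

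Acute phase and effector genes downstream of NF-kB formed the third inflammatory list, with 6 of 17 tested members lower (35.3%, against 0.646% of all genes tested), none higher, and a median of -0.52 against 0.01 over all genes. All 17 had a change below 0. Lcn2, a secreted protein that withholds iron from bacteria, had 8.20, 8.40 and 7.22 CPM at 24 h and 3.02, 2.78 and 3.20 CPM at 48 h. This was a fall by 62.2% (-1.40 ± 0.11, adjusted p = 4.09e-07, edgeR). Nos2, which makes nitric oxide from arginine, had 67.5, 58.9 and 65.2 CPM at 24 h and 27.9, 25.4 and 26.7 CPM at 48 h, with the smallest adjusted p of all genes tested, 2.06e-08 (edgeR), at a change of -1.26 ± 0.08. Complement component C3 had 131, 125 and 132 CPM at 24 h and 73.8, 61.5 and 67.5 CPM at 48 h (-0.94 ± 0.07, adjusted p = 7.94e-08, edgeR). In each of these genes the groups were far apart compared with the spread within them.

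The serum amyloid gene Saa3 fell from 9.08 ± 1.62 to 4.38 ± 0.816 CPM (-1.05 ± 0.12, adjusted p = 3.97e-05, edgeR). The Saa family has similar copies, and reads without a unique alignment were entered under no gene, so its counts can be too low. Ceruloplasmin, a copper-carrying ferroxidase encoded by Cp, changed by -0.43 ± 0.06 (adjusted p = 0.000600, edgeR), and its gene overlaps Hps3 on the opposite strand. Prostaglandin E synthase, encoded by Ptges, changed by -0.30 ± 0.05 (adjusted p = 0.00266, edgeR). The inducible cyclooxygenase Ptgs2, which acts in the step before it, had 969.6 ± 136 CPM at 24 h and 914 ± 39.7 CPM at 48 h and did not pass the test (-0.08 ± 0.09, adjusted p = 0.716, edgeR). Nor did the adhesion molecule Vcam1 (-0.17 ± 0.07, adjusted p = 0.380, edgeR) or the mitochondrial superoxide dismutase Sod2 (-0.20 ± 0.05, adjusted p = 0.0724, edgeR). The list thus held members with large falls beside others with changes near 0.

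**Figure D2:**
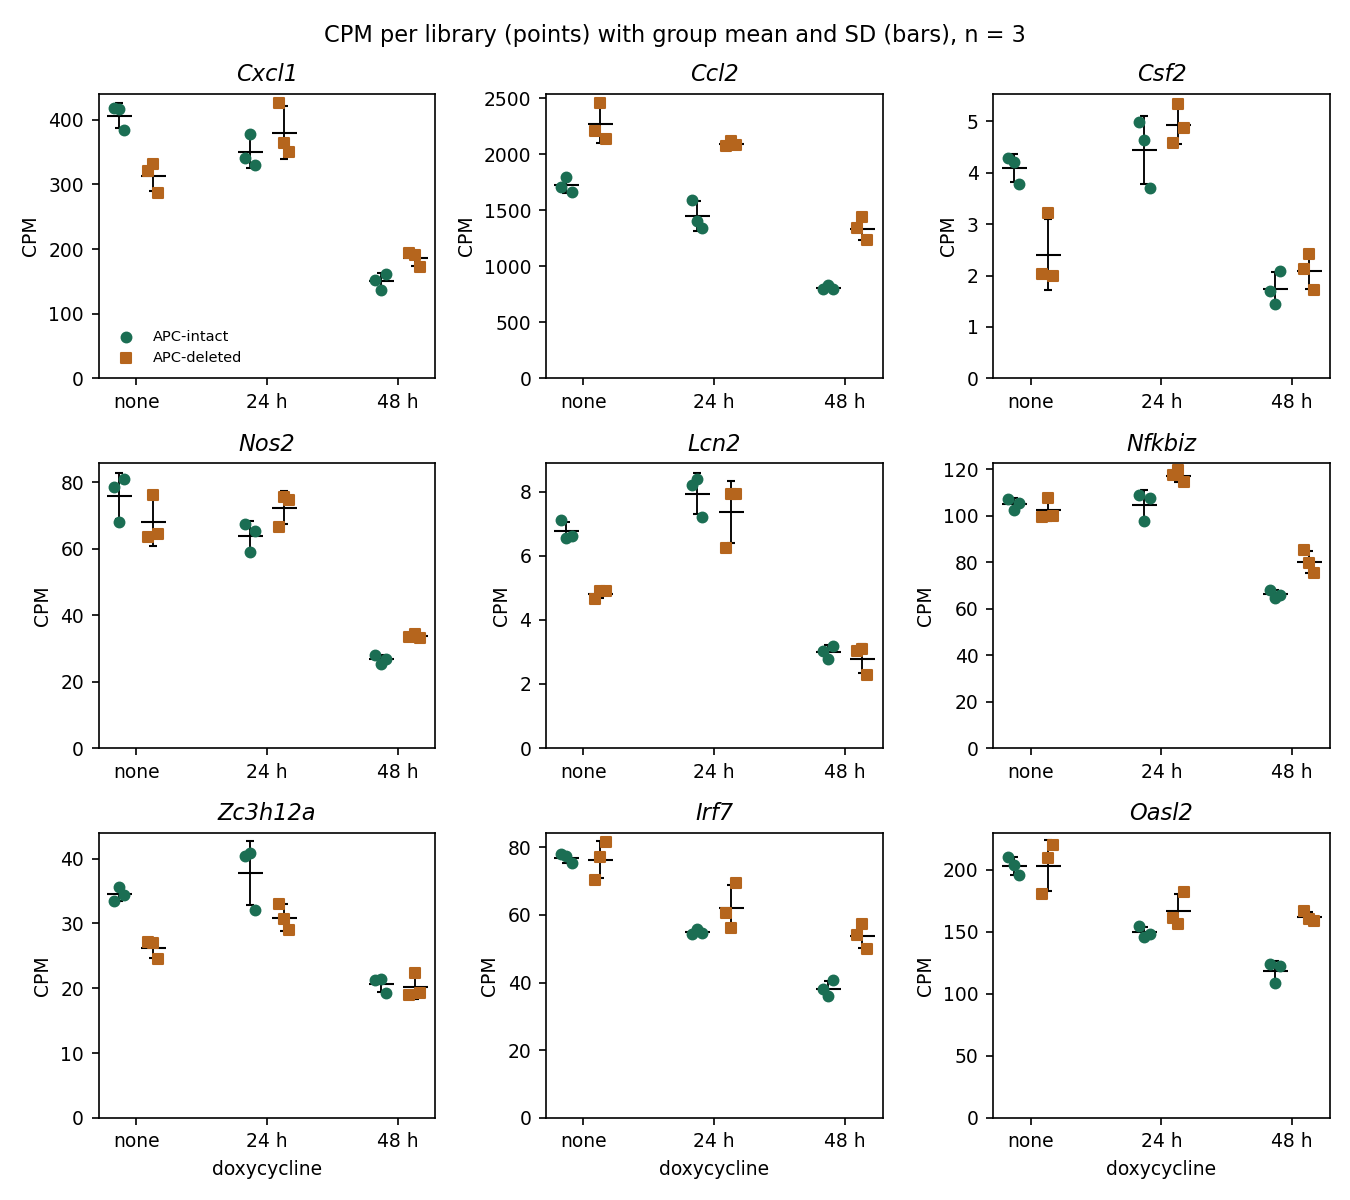
CPM of 9 genes in all 18 libraries (y axis from 0) by time of doxycycline (x axis), with circles for APC-intact and squares for APC-deleted libraries, and bars for the mean and SD of 3. For Cxcl1, Csf2, Nos2 and Lcn2 the APC-intact libraries at 48 h lie below both the untreated and the 24 h libraries, while Irf7 and Oasl2 are lower at 24 h than untreated and lower again at 48 h.

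NF-kB subunits and the genes that feed back on the pathway had 20 of 21 members tested, with 7 lower (35%, against 0.646% of all genes tested), none higher and a median of -0.23. The largest called fall was in Zc3h12a, which encodes regnase-1, an RNase that cuts inflammatory mRNAs. Its CPM were 40.4, 40.9 and 32.03 at 24 h and 21.2, 21.4 and 19.2 at 48 h (-0.87 ± 0.09, adjusted p = 5.65e-06, edgeR). Nfkbiz encodes IκBζ, a nuclear cofactor that many secondary NF-kB targets need, Lcn2 and Csf2 among them. It had 109, 97.8 and 108 CPM at 24 h and 68.3, 64.7 and 65.9 CPM at 48 h, and the change was -0.66 ± 0.05 (adjusted p = 4.09e-07, edgeR). Bcl3, a related nuclear cofactor, changed by -0.61 ± 0.07 (adjusted p = 9.53e-05, edgeR), with a partner gene overlapping on the opposite strand. Nfkbia, which encodes the inhibitor IκBα, had 130.0, 156 and 129 CPM at 24 h and 98.9, 95.6 and 98.7 CPM at 48 h, again without overlap (-0.50 ± 0.07, adjusted p = 0.000221, edgeR).

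The subunit genes moved less. Nfkb1 changed by -0.18 ± 0.04 (adjusted p = 0.0473, edgeR) and Nfkb2 by -0.25 ± 0.05 (adjusted p = 0.0207, edgeR), and Tnfaip3, which encodes the ubiquitin-editing inhibitor A20, by -0.23 ± 0.05 (adjusted p = 0.0494, edgeR). These 3 calls were close to the threshold. Each was lost without replicate 1 or 2 at 24 h and without replicate 2 or 3 at 48 h, and that of Nfkb1 also without replicate 1 at 48 h. The count for the list was 4 without any 1 of replicates 1 and 2 at 24 h and 2 and 3 at 48 h, and 11 without replicate 3 at 24 h. Rela, the main activating subunit, had 80.4 ± 4.82 CPM at 24 h and 69.1 ± 3.39 CPM at 48 h (-0.22 ± 0.05, adjusted p = 0.0686, edgeR), and Relb changed by -0.33 ± 0.09 (adjusted p = 0.120, edgeR). Neither passed the test, and Rel had 0.08 ± 0.17. Tnf was not tested because its counts were too low.

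Promoters of these genes are shown because many of them fell together. RefSeq promoters of 300 bases, 250 before to 50 after the start site, were matched to 70 of the 97 genes that fell and to 10619 of the 15006 tested. A pair of motifs that resemble NF-kB sites and can overlap each other were searched on both strands: GGG, any 2 bases and TTTCC, and GGGA, any 2 bases and TTCC. One or both were in the promoters of 10 of the 70 genes (14.3%), against 351 of the 10619 (3.31%) and 2.68% of all RefSeq mouse promoters. None of the 11 matched promoters of genes that rose held either, and 11 are too few for a contrast at a share of 3.31%. A match is a description of letters, not evidence of binding. The genes that fell include many known NF-kB targets, so an excess was to be expected and says nothing about the fall. Targets that did not fall were not counted apart. The genes were Cxcl1, Cxcl3, Ccl20, Csf1, Nfkbia, Nfkb2, Tnfaip3, Gbp2 and the divergent pair Tmem176a and Tmem176b, whose windows share sequence. Matches are in capitals in the 3 promoters below (RefSeq, GRCm38.p6, 5′ to 3′ on the gene's strand), for a chemokine that draws neutrophils, one that draws CCR6-bearing cells and the pathway's own inhibitor. They lie at chr5:90890995-90891294 on the plus strand for Cxcl1, with the first match listed at position -89 from the start site, at chr1:83116516-83116815 on the plus strand for Ccl20 (-80), and at chr12:55492598-55492897 on the minus strand for Nfkbia (-29).
Cxcl1: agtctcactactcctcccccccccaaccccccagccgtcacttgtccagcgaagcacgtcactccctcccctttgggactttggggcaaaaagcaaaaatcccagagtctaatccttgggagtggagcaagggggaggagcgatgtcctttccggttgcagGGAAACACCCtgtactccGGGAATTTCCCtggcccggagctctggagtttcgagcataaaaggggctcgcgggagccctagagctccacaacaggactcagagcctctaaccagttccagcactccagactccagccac
Ccl20: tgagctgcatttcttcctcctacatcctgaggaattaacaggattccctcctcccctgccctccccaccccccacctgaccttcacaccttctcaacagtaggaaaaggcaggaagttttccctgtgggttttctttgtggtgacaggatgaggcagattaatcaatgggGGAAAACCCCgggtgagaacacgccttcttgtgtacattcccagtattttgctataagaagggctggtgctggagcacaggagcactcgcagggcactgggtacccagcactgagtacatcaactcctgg
Nfkbia: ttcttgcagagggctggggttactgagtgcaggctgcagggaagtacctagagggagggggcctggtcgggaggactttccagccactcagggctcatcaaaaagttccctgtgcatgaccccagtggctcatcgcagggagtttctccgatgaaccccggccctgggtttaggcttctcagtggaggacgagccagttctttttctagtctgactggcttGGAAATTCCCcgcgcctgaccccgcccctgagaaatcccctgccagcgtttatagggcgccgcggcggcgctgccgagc

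Interferon-stimulated genes made the longest list with falls: 11 of 45 tested members fell (24.4%, against 0.646% of all genes tested) and none rose, with a median of -0.23. Irf7, the transcription factor that amplifies the interferon response, had 54.2, 55.8 and 54.5 CPM at 24 h and 38.1, 35.9 and 40.6 CPM at 48 h (-0.52 ± 0.07, adjusted p = 0.000472, edgeR), and overlaps Phrf1 on the opposite strand. Zbp1, a sensor of Z-form nucleic acids, had 31.01, 27.8 and 26.9 CPM at 24 h and 18.3, 19.99 and 20.6 CPM at 48 h (-0.54 ± 0.08, adjusted p = 0.000676, edgeR). In both genes the libraries at 48 h lay below all libraries at 24 h. The guanylate-binding protein gene Gbp3 changed by -0.47 ± 0.08 (adjusted p = 0.00263, edgeR) and Gbp2 by -0.43 ± 0.08 (adjusted p = 0.0102, edgeR). Genes of the 2′-5′-oligoadenylate synthetases, which activate RNase L, followed with Oas3 at -0.36 ± 0.07, Oas1a at -0.35 ± 0.06 and Oasl2 at -0.34 ± 0.07. Their adjusted p were 0.00588, 0.00719 and 0.0214 in edgeR.

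The ubiquitin-like modifier Isg15 had 91.9, 104 and 93.9 CPM at 24 h and 77.5, 78.9 and 82.2 CPM at 48 h, a change of -0.28 ± 0.06 (adjusted p = 0.0308, edgeR), and Usp18, the protease that removes it, changed by -0.30 ± 0.07 (adjusted p = 0.0344, edgeR). Phf11d (-0.40 ± 0.07) and the galectin-3-binding protein gene Lgals3bp (-0.29 ± 0.05) completed the 11. Calls with small changes depended on single libraries: those of Isg15 and Usp18 were lost without replicate 1 or 2 at 48 h or replicate 2 at 24 h, and Isg15 also without replicate 3 at 48 h and Usp18 without replicate 1 at 24 h. Those of Oas1a, Oasl2 and Phf11d were lost without replicate 1 at 24 h, and that of Oas1a also without replicate 1 at 48 h. Without replicate 2 at 48 h the list had 6 calls, also without Gbp2, Phf11d and Oasl2, and fitting only the 6 libraries gave 6. With offsets for GC content it had 18. Not all members moved: Ifit1 (0.05 ± 0.07), Ifit2 (0.05 ± 0.09) and Rsad2 (0.08 ± 0.11) had values close to 0. Of 21 tested genes of MHC class I and antigen processing, Tapbp alone fell (-0.28 ± 0.06, adjusted p = 0.0404, edgeR), a call lost without any 1 of the libraries other than replicate 3 at 24 h. The median of that list was -0.13. Families such as Oas, Gbp and H2 have near-identical copies. Reads without a unique alignment were entered under no gene, so counts of such copies can be too low.

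The core of an interferon response element, searched on both strands as TTTC, any 2 bases and TTTC, was in the promoters of 5 of the 9 interferon genes that fell and had a RefSeq promoter (55.6%), against 3.84% of tested genes with one. An excess was to be expected, since the list holds genes known to respond to interferon, so it says nothing about the fall. List members that did not fall were not counted apart. The motif was in 4 of 61 promoters of other genes that fell (6.56%) and in 2 of 11 of genes that rose (18.2%). The promoters of Isg15 and Oas1a are shown with the matches in capitals, since each holds several adjoining matches. The Isg15 promoter is at chr4:156200769-156201068 and the Oas1a promoter at chr5:120907476-120907775 (RefSeq, GRCm38.p6, both on the minus strand, written 5′ to 3′ on that strand), with the first matches at -78 and -20 from the start site.
Isg15: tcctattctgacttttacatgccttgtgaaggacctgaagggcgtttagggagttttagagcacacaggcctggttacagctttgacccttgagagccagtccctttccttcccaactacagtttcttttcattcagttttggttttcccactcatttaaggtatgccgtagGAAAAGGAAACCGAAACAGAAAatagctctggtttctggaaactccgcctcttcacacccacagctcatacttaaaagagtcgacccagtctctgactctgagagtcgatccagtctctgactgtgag
Oas1a: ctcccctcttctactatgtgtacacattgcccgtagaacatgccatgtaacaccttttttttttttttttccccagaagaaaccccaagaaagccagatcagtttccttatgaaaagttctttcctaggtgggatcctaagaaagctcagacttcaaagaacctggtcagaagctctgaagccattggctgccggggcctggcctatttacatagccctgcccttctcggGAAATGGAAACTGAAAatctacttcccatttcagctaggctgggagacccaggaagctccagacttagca

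Beyond these lists, 51 of the 97 genes that fell were in none of the 37 gene lists. Cebpd, a transcription factor that maintains inflammatory transcription, had 96.8, 115 and 74.3 CPM at 24 h and 49.7, 47.5 and 48.8 CPM at 48 h, so the 24 h libraries were spread widely and still lay above the narrow range at 48 h (-0.97 ± 0.13, adjusted p = 0.000600, edgeR). Irg1, also known as Acod1, makes itaconate from a citric acid cycle intermediate and is best known from activated macrophages. It fell from 20.9 ± 0.261 to 11.9 ± 0.224 CPM (-0.81 ± 0.08, adjusted p = 2.83e-06, edgeR). The death receptor Fas changed by -0.65 ± 0.10 (adjusted p = 0.000826, edgeR), although the median of 26 tested p53 targets, to which it belongs, was 0.01. Ikbke, a kinase that joins the NF-kB and interferon pathways, changed by -0.53 ± 0.10 (adjusted p = 0.00752, edgeR), a call lost without replicate 2 or 3 at 48 h. The autotaxin gene Enpp2 (-0.61 ± 0.07), the iron transporter gene Slc11a2 (-0.45 ± 0.04) and the complement protease gene C1s (-0.45 ± 0.07) also fell, with adjusted p of 2.01e-05, 5.65e-06 and 0.00120 in edgeR. Odc1, which makes putrescine, fell from 1814 ± 84.7 to 1489 ± 43.5 CPM (-0.28 ± 0.05, adjusted p = 0.00769, edgeR), a call lost without replicate 1 at 48 h.

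A few falls belonged to other lists, in which most members were not called. Median changes were -0.05 for collagen and fibroblast genes, -0.11 for immediate early genes and -0.15 for matrix metalloproteinases and their TIMP inhibitors. Over all genes tested the median was 0.01. Col5a3 (-0.58 ± 0.06, adjusted p = 2.31e-05), Col18a1 (-0.32 ± 0.06) and Col6a2 (-0.28 ± 0.06) were the 3 of 29 tested collagen and fibroblast genes that fell in edgeR (10.3%, against 0.646% of all genes tested), beside Col1a1 at -0.10 ± 0.06 and Col3a1 at -0.15 ± 0.06. The call of Col18a1 was lost without replicate 2 at 48 h and with offsets for GC content, and that of Col6a2 without replicate 2 at 24 h or any library at 48 h. Among 27 immediate early genes, 2 fell (7.41%, against 0.646% of all genes tested). They were Ier3, an anti-apoptotic NF-kB target (-0.45 ± 0.06, adjusted p = 0.000536, edgeR), and the AP-1 subunit Fosl1 (-0.38 ± 0.08, adjusted p = 0.0228, edgeR), whose call held in 1 of the 6 fits that left out a library. Jun had -0.39 ± 0.10 and Myc -0.22 ± 0.06, neither past the test. Mmp14, Ltbp2 and Plk2 were the other members of lists that fell, with changes of -0.19 ± 0.04, -0.32 ± 0.07 and -0.21 ± 0.05, and the calls held in 1, 3 and 2 of the 6 fits that left out a library. Gm10282 had the largest fitted fall of the called genes, -2.51 ± 0.55, but its CPM at 24 h were 3.41, 3.37 and 0.428, so replicate 3 lay within the range of 0.451, 0.396 and 0.404 at 48 h, and it was the one of the 97 whose groups overlapped. Groups did not overlap for the other 96 of 97 that fell and for all 14 that rose. Over all genes tested, 15% did not overlap between the groups and 7.5% did not with 48 h lower, and since a call uses the same values this is a description.

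No member rose or fell in 24 of the 37 lists, which together hold 514 tested entries. With 0.74% of all genes tested called, most single lists of this size would hold no call in any case. They include the kynurenine pathway (6 tested, median -0.02), NRF2 targets (25, median -0.05), hypoxia targets (21, median 0.00), glycolysis (23, median 0.01), the nuclear respiratory chain (52, median -0.01), S phase (36, median -0.01), G2 and M phase (30, median 0.08), Wnt targets (13, median 0.00) and the ATF4 response (34, median -0.03). Mitochondrially encoded mRNAs had a median of 0.14 over 13 genes, with a smallest adjusted p of 0.571 in edgeR. A call that was not made does not show that a gene stayed the same.

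**Figure D3:**
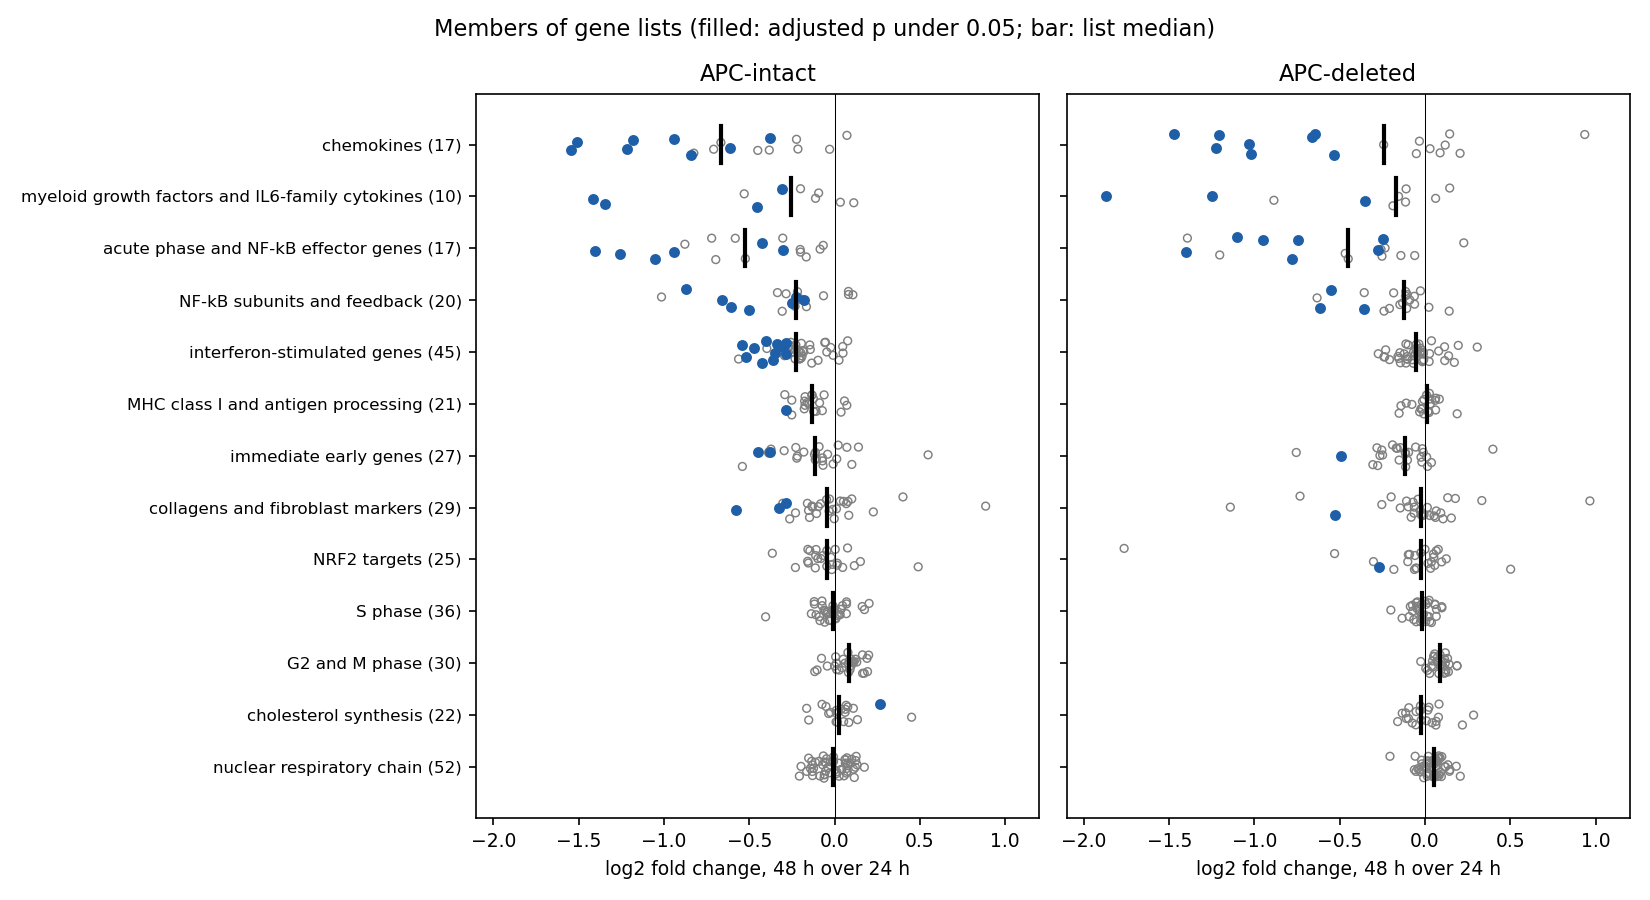
Log2 fold change at 48 h over 24 h (x axis) for each tested member of 13 lists (rows, number tested in brackets) in APC-intact cells, left, and APC-deleted cells, right. Filled points passed the adjusted p threshold of 0.05 and black bars are list medians, which lie at -0.67 for chemokines and -0.01 for S phase in APC-intact cells.

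The 14 rises were spread over genes of unlike function, and 12 of them were in no list. Lars2 encodes the mitochondrial leucyl-tRNA synthetase. Counts are for the whole gene, and where in it the reads lie was not examined, so they may not all come from mRNA of the enzyme. It had 611, 591 and 669 CPM at 24 h and 873, 904 and 856 CPM at 48 h (0.49 ± 0.09, adjusted p = 0.0102, edgeR). Its level without the drug, 698, 806 and 748 CPM, lay between those of both treated groups in all 3 libraries. The call was lost without replicate 1 or 2 at 24 h or replicate 2 at 48 h. In APC-deleted cells, within 1 run, Lars2 changed by 0.12 ± 0.09 (adjusted p = 0.778, edgeR). The difference between the lines was 0.37 ± 0.13 (adjusted p = 0.993, edgeR). Wnt9a, a secreted Wnt ligand, had 11.2, 12.2 and 10.9 CPM at 24 h and 16.8, 15.2 and 15.8 CPM at 48 h (0.48 ± 0.06, adjusted p = 0.000337, edgeR), and was the one rise called in all 14 alternatives. Spns2, an exporter of sphingosine 1-phosphate, changed by 0.37 ± 0.07 (adjusted p = 0.00713, edgeR), and overlaps Mybbp1a on the opposite strand. Its call was lost without replicate 2 at 48 h. The water channel gene Aqp1 had 48.6, 49.5 and 47.9 CPM untreated, 27.8, 25.7 and 28.4 at 24 h and 33.7, 34.6 and 32.2 at 48 h, so it rose to a level still below that of untreated cells (0.29 ± 0.06, adjusted p = 0.0102, edgeR). That call was lost without replicate 1 or 2 at 48 h or replicate 2 at 24 h.

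Insig1, which retains SREBP in the endoplasmic reticulum, was the one of 22 cholesterol synthesis genes that rose (0.27 ± 0.06, adjusted p = 0.0364, edgeR), where 0.0933% of all genes tested rose. Its call was lost whichever of the 6 libraries was left out. Tgfbi, a matrix protein induced by TGF-beta, rose (0.25 ± 0.06, adjusted p = 0.0360, edgeR), with the call kept in 1 of those 6 fits. Changes of the other rises with a symbol and at least 5 CPM were between 0.24 for Mgat3 and 0.36 for Klhl30, with Gfra1, Ranbp6, Arhgap18 and Amigo2 between them. Of these, only Mgat3 stayed past the threshold with any 1 library left out. Gm15564 (0.69 ± 0.10), a rise with no assigned gene symbol, falls outside that rule.

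The first 24 h of the drug against none is a comparison within the first run. Titles give the hairpin for the treated libraries alone, so the untreated cells may differ from the treated ones in more than the drug. Such a difference cannot be told apart from the first 24 h of the drug. There, 846 genes changed (5.64%), with 208 higher (1.39%) and 638 lower (4.25%). The count was 441 without replicate 1 at 24 h, and 364 and 417 without untreated replicates 1 and 2. It shares the 24 h libraries with the comparison above, so the values are set side by side only. None of the 20 NF-kB subunits and feedback genes was called between untreated and 24 h, and their median was -0.01. Nfkbiz had -0.00 and then -0.66, and Zc3h12a 0.13 and then -0.87. Lcn2 had 0.23 (adjusted p = 0.256, edgeR) before its change of -1.40, and Csf2 0.12 (adjusted p = 0.766, edgeR) before -1.34. Of the other inflammatory lists, 6 of 17 chemokines (median -0.26), 3 of 10 growth factors (median -0.18) and 3 of 17 effector genes (median -0.17) fell in the first 24 h. Among genes called in both steps, Ccl7 had -0.35 and then -0.94, Ccl2 -0.25 and -0.84, Saa3 -0.46 and -1.05, Irg1 -0.39 and -0.81, and Lif -0.22 and -0.45. Their adjusted p in the first step were 0.00965, 0.0310, 0.0231, 0.00258 and 0.0143 in edgeR. Of the interferon-stimulated genes, 34 of 45 fell in the first 24 h, with a median of -0.41. Irf7 had -0.49 in that step and -0.52 in the next, Isg15 -0.54 and -0.28, and Ifit1 -0.48 and 0.05.

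In APC-deleted cells, where both times were in 1 run, 78 genes changed between 24 and 48 h (0.52%), with 11 higher (0.0733%) and 67 lower (0.446%). The 2 comparisons share no library. Of the 97 genes that fell in APC-intact cells, 42 also fell in APC-deleted cells, which is 43.3% of the 97 and 62.7% of the 67. Of the 14 that rose, 7 also rose there, 50% of the 14 and 63.6% of the 11. The change was below 0 in APC-deleted cells for 96 of the 97 (47.7% of all genes tested), and its groups did not overlap, with 48 h lower, for 75 (7.22% of all genes tested). An unadjusted p below 0.05 with a change below 0 there was found for 82 of the 97 (5.02% of all genes tested), and with a change above 0 for 12 of the 14 (3.99%). All 14 rises had a change above 0 there, against 52.3% of all genes. The median over the 97 genes was -0.44 with APC and -0.28 without it, and 82 of the 97 had the larger fall in APC-intact cells. These genes were chosen by their values in APC-intact cells, so the median and the last count are a description. The count of 78 was 193 without replicate 2 at 48 h, 47 without replicate 2 at 24 h, and 221 without both APC-deleted replicate 2 at 48 h and APC-intact replicate 1 at 24 h.

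The leading inflammatory genes fell in APC-deleted cells too. Nos2 had 66.5, 75.4 and 74.7 CPM at 24 h and 33.3, 34.3 and 33.1 CPM at 48 h in APC-deleted cells, a change of -1.11 ± 0.08 (adjusted p = 1.83e-07, edgeR). Lcn2 changed by -1.40 ± 0.12 there, and its change in APC-intact cells minus that in APC-deleted cells was 0.00 ± 0.15. Cxcl1 changed by -1.03 ± 0.08 (adjusted p = 5.39e-07, edgeR), Ccl2 by -0.65 ± 0.07 (adjusted p = 1.53e-05, edgeR) and Nfkbiz by -0.55 ± 0.05 (adjusted p = 7.69e-06, edgeR). Csf3 stood higher in APC-deleted cells, at 12.3, 13.3 and 11.4 CPM at 24 h and 2.90, 3.63 and 3.62 CPM at 48 h, a change of -1.87 ± 0.15 (adjusted p = 7.24e-07, edgeR). By list, 8 of 17 chemokines, 3 of 10 growth factors, 7 of 17 effector genes and 3 of 20 NF-kB subunits and feedback genes fell in APC-deleted cells, against 0.446% of all genes tested.

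Interferon-stimulated genes had smaller changes in APC-deleted cells, where the median was -0.05. None of the 45 was called there. With 0.446% of all genes tested lower in that step, most lists of this size would hold no call in any case. Irf7 had 60.7, 56.01 and 69.5 CPM at 24 h and 53.9, 57.2 and 49.97 CPM at 48 h there, ranges that overlapped, with a change of -0.21 ± 0.07 (adjusted p = 0.325, edgeR). Oasl2 changed by -0.04 ± 0.07 there. The step in APC-intact cells minus that in APC-deleted cells had a median of -0.17 over the 45 genes, below 0 for 40 of them, against a median of 0.00 and 49.3% over all genes tested. This was not particular to the interferon list. The median was -0.19 for chemokines (14 of 17 below 0), -0.16 for MHC class I and antigen processing (17 of 21) and -0.09 for NF-kB subunits and feedback (17 of 20). It was -0.02 for growth factors (6 of 10) and -0.01 for effector genes (9 of 17). No single gene passed the test of this difference in edgeR or in DESeq2, at a smallest adjusted p of 0.993 in edgeR, while 471 genes had an unadjusted p below 0.05. Leaving out replicate 3 of APC-intact cells at 24 h gave 1. The run does not cancel in this difference, because the step crossed runs in APC-intact cells only. The stromal marker gene Islr changed by -0.59 in APC-intact and -0.03 in APC-deleted cells, and Enpp2 by -0.61 and -0.25, with adjusted p of 0.993 for both differences in edgeR.

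**Figure D4:**
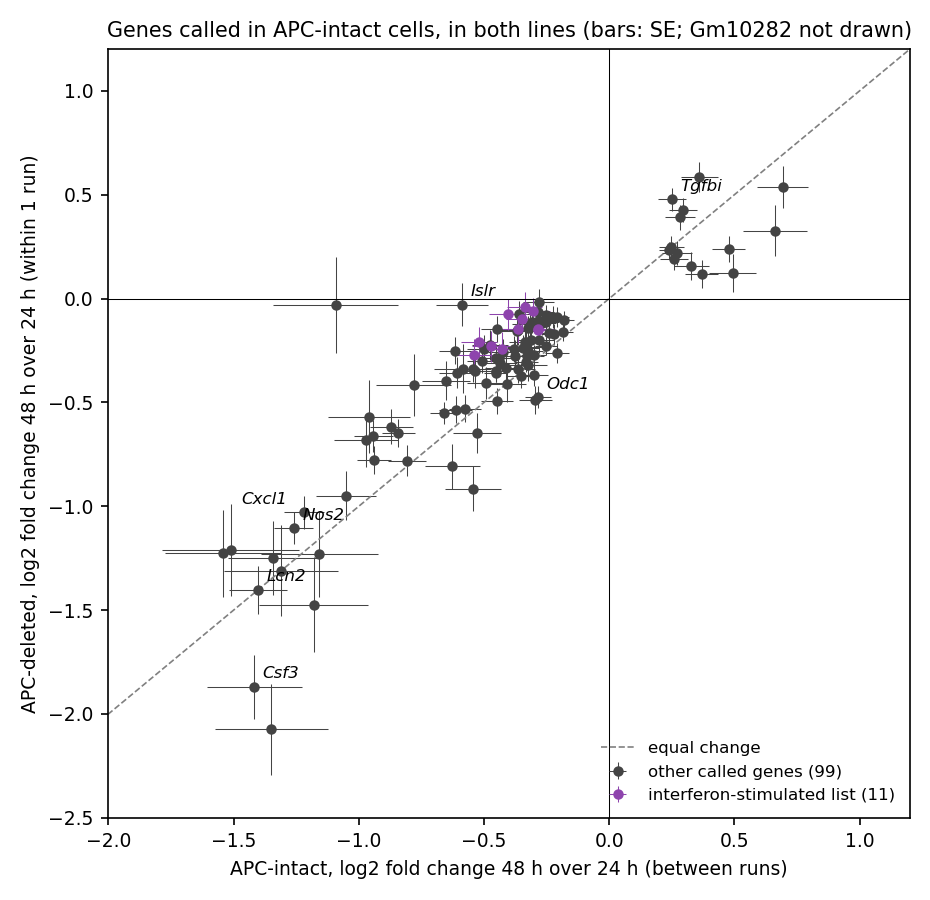
Log2 fold change at 48 h over 24 h in APC-intact cells (x axis, between runs) and APC-deleted cells (y axis, within 1 run) for 110 of the 111 genes called in APC-intact cells, with bars for SE and a dashed line for equal change. Most points lie in the lower left or upper right quadrant, and the 11 interferon-stimulated genes, in purple, lie closer to 0 on the y axis than on the x axis. All genes drawn were chosen by their values on the x axis. The fall was larger in APC-intact cells for 82 of all 97 genes that fell, so this is a description and not particular to the purple points.

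Library measures that can move with a run are given here beside the results, and their part in them was not tested. The median change of all genes over 5 bins of equal size ran from 0.09 at the lowest GC content to -0.08 at the highest in APC-intact cells, and from 0.02 to -0.01 in APC-deleted cells. The genes that fell had a median GC content of 51.4%, against 49.7% for all genes tested. By exon length the medians ran from -0.05 for the shortest bin to 0.04 for the longest. Reads in no annotated gene took 6.21 ± 0.54% of each library at 24 h and 6.59 ± 0.38% at 48 h (SD, n = 3). Nuclear long noncoding RNAs, of which 9 are in the files, summed to 191 to 417 CPM at 24 h and 430.3 to 588 CPM at 48 h, without overlap, and to 224 to 344 and 219 to 352 CPM in APC-deleted cells, where the ranges overlapped. Malat1, the largest part of the sum, had 319, 102 and 238 CPM at 24 h and 481, 335 and 330.2 CPM at 48 h (0.80 ± 0.45, adjusted p = 0.526, edgeR), against -0.02 ± 0.44 in APC-deleted cells, and the difference was 0.81 ± 0.63. None of the 5 tested was called. On principal components of the 6 libraries, replicates 1 and 2 at 24 h stood apart from each other and from the remaining 4, with scores of -18.8 and -32.5 on the first component (29.1% of variance) against 7.52 to 19.1, and of 34.5 and -24.7 on the second (25.3%). Markers of haematopoietic cells summed to 28.9 to 32.9 CPM at 24 h and 27.8 to 28.7 CPM at 48 h over 22 genes in the files, so the ranges did not overlap and 48 h was lower. Of these, 7 were tested and none was called, and Cd3e, Cd8a, Emr1 and Lyz1 had 0 counts in each of the 6 libraries. Cd14 and Cd68 made up most of the sum, and the pan-leukocyte gene Ptprc had at most 0.0491 CPM.

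**Figure D5:**
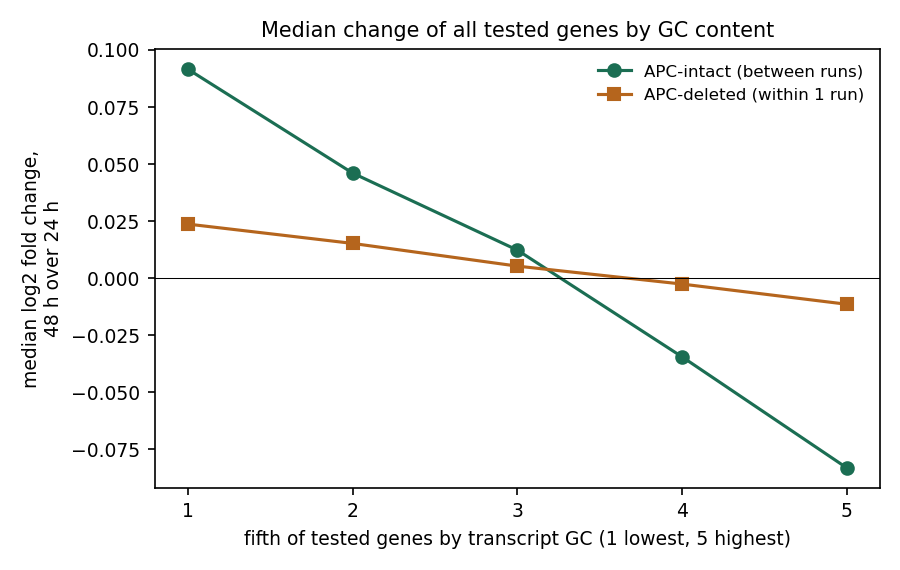
Median log2 fold change at 48 h over 24 h (y axis) of tested genes in 5 bins of transcript GC content (x axis, lowest to highest), for APC-intact cells (circles, between runs) and APC-deleted cells (squares, within 1 run). The medians go from 0.09 to -0.08 in APC-intact cells and from 0.02 to -0.01 in APC-deleted cells.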

How the data were processed

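RNA of 18 MC38 libraries in 6 groups of 3 was analysed, and the 6 treated APC-intact libraries carry the comparison. Each file the authors deposited lists counts of reads per gene as whole numbers. STAR, HTSeq and the mm10 build are named, per the submitters' processing notes, while versions, annotation release and strand setting are not given in the sources used here. Entries that name no gene, 24.8 to 25.5% of the totals of the 6 libraries, did not enter library sizes or tests, and the RPKM column beside the counts was not used. Replicate pairs all differed beyond sampling noise, so each library counted once. The precision is that of counting and of the spread between these libraries.

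The test was edgeR's (version 4.0.16, R 4.3.3) robust quasi-likelihood fit with TMM factors, filterByExpr by group and a coefficient for each of the 6 groups of 18 libraries, with Benjamini-Hochberg adjustment over 15006 genes and a threshold of 0.05. The common biological coefficient of variation was 8.33%. The steps were tested on simulated counts. DESeq2 1.42.0, other scalings, filters and left-out libraries were alternatives. Offsets for GC content in 20 bins, and a fit without the 2 libraries whose score passed 30 on component 3 or 4 of all 18 (APC-intact at 24 h replicate 1, APC-deleted at 48 h replicate 2), were chosen after seeing the data.

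The comparison, the 37 gene lists and the motifs were chosen with earlier results of these data known. Genes were named by a rule: among called genes with an assigned symbol, groups that do not overlap and 5 CPM or more in the higher one, the 12 largest rises, the 12 largest falls and, for each list, up to 4 with the smallest adjusted p, plus Tdo2. Other genes in the text were chosen after their values were seen. Some genes in the counts are not reported here by name. Gene places are from GENCODE for GRCm38 and promoters from RefSeq GRCm38.p6. Of the 111 called genes, 24 overlap another tested gene, 20 of them with a partner on the opposite strand.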

Additional observations from a re-analysis of the deposited data

How the results depend on the processing

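The 48 h over 24 h step in APC-intact cells gave 111 calls, and between 106 and 138 with DESeq-style factors, no filter, thinned counts or without the 2 libraries that stand apart. It gave 238 with DESeq2, 49 with only the groups compared, 168 with offsets for GC content, and 64 to 442 with 1 library left out. In APC-deleted cells the 78 calls became 187 with DESeq2, 22 with only the groups compared, 221 without the 2 libraries that stand apart, 159 with offsets for GC content, and 47 to 193 with 1 library left out. The share of lower calls there was 85.9%, and 68.4%, 72.9% and 71.1% with DESeq2, without those 2 libraries and with the offsets. For 24 h against none in APC-intact cells, 846 calls became 258 with only the groups compared, 1342 with the offsets, and 364 to 1259 with 1 library left out. The difference between the lines had 0 to 1 calls throughout. Same-numbered libraries had correlations across genes of -0.021 to 0.047 for the step in APC-intact cells, -0.012 to 0.051 in APC-deleted cells and -0.013 to 0.116 for 24 h against none. In none of these did each library correlate best with its own number, so the numbers are not taken as pairs. The replicate block gave 127, 86, 0 and 965 calls for the step with APC, the step without it, their difference and 24 h against none. Of the tests of named genes under alternatives, 497 kept their side of the threshold, 104 lost the call and none reversed. The causes were not tested. Genes under about 1 CPM, Tdo2 among them, are limited by depth.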
